A study of Mus musculus with 4 samples.

Results

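Dendritic cells that have met a stimulus and are ready to leave the gut for its draining lymph node carry a distinct set of transcripts, and 10 genes of this maturation programme were followed here, Ccl22, Ccl17, Cd80, Cd86, Cd83, Fscn1, Ido1, Socs2, Zbtb46 and Relb. They were picked by name, with no threshold on a measured value, but with earlier results of these data known. All 10 were in the deposited table, and all 10 were among the 13528 genes whose mean expression was high enough for testing. RNA was taken from lamina propria mononuclear cells after CD4 T cells had been transferred into mice. This preparation is made from the tissue beneath the gut epithelium to collect immune cells. Markers of fibroblasts, endothelium and epithelium were expressed in it as well, as described below. The DKO group (2 samples) received CD4 cells without Hobit and without Blimp-1, repressors that hold lymphocytes in tissues, and is labelled as having mild colitis. The wild-type group (2 samples) received wild-type CD4 cells and is labelled as having pronounced colitis. The genotype is that of the transferred T cells, whereas the 10 genes were picked as genes of dendritic cells, which are not the transferred cells. Markers of T cells were expressed in the preparation as well. Which cells made each transcript was not tested. The sources used here do not give the strain, the age or the cells that the recipients still had.

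Immature conventional dendritic cells sample antigen in the lamina propria. On maturation they raise costimulatory molecules of the B7 family, secrete chemokines that draw T cells bearing the receptor Ccr4, bundle their actin into long dendrites and switch on genes under NF-kappaB control. The same cells also carry brakes on T cell activation, among them the tryptophan-degrading enzyme Ido1 and the cytokine-signalling inhibitor Socs2. Few of these genes belong to dendritic cells alone: macrophages and monocytes make Cd80, Cd86 and Cd83, and endothelial cells make Zbtb46.

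The values are regularized log2 expression (rlog), a scale on which 1 unit is a doubling and on which differences are pulled towards 0, most in genes with few reads. The depth of each library is unknown, so no counting interval is given. The series text speaks of biological replicates but not of separate mice, and the spread behind each p-value may be technical.

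Ido1, Ccl22 and Zbtb46 rose in the DKO samples and Cd80 fell, while the other 6 genes did not pass the test (limma across all 13528 genes, Benjamini-Hochberg adjusted p under 0.05). Of all genes tested, 9.92% rose and 4.85% fell, against 3 and 1 of these 10 (1 and 0 without wild-type replicate 1). The median log2 fold change was 0.17 over the 10 genes and -0.022 over all genes tested. Groups were apart, with both DKO samples above both wild-type samples, in 5 of the 10 (Ccl22, Ccl17, Fscn1, Ido1 and Zbtb46), against 25.0% of all genes. Both DKO samples were below in 1 of the 10 (Cd80), against 30.3% of all genes. In a bulk sample, fewer cells of a type and less RNA per cell cannot be told apart.

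**Figure D1:**
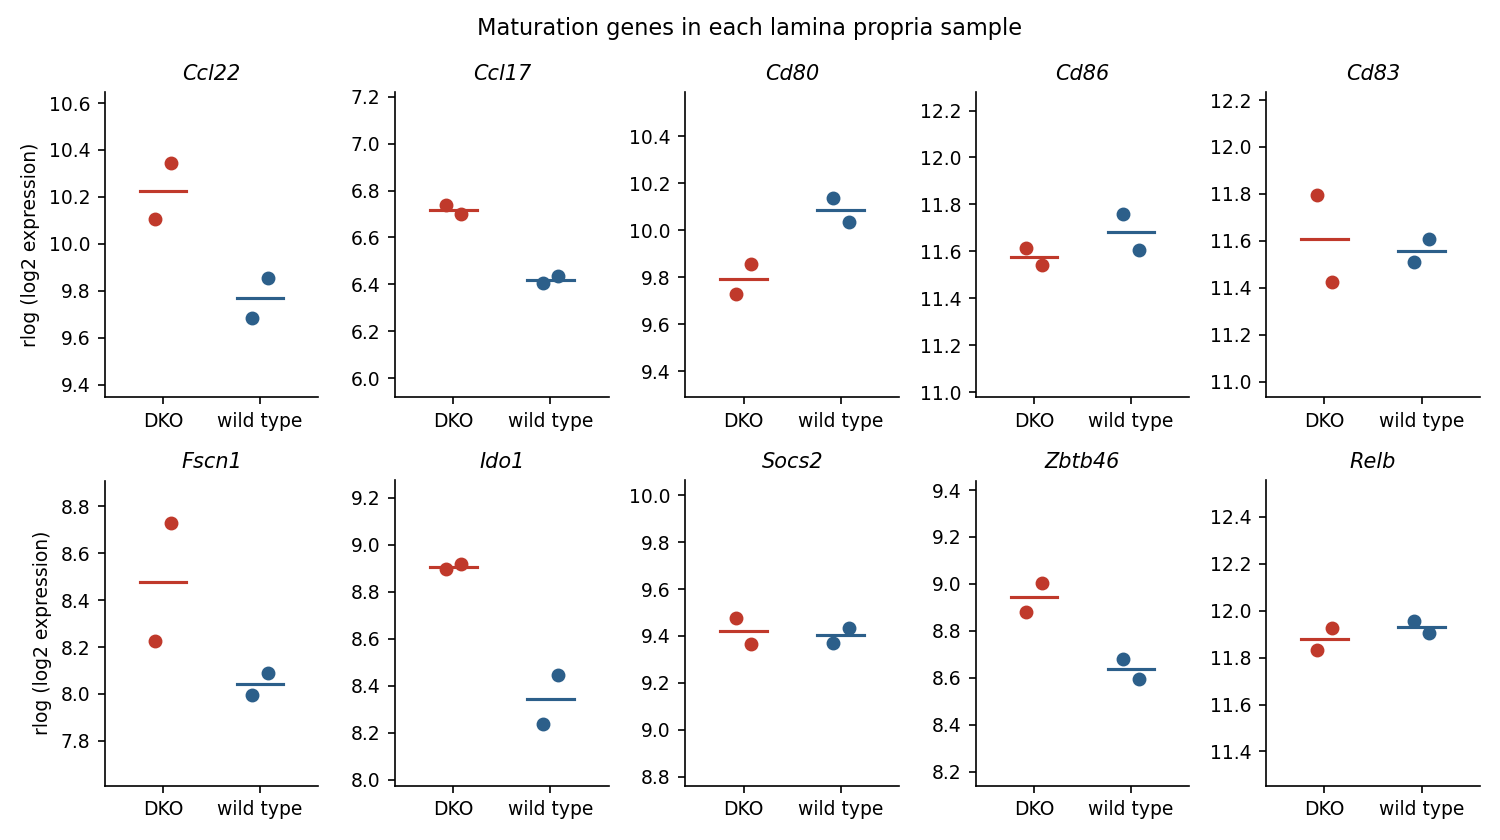
Expression (rlog, log2 scale) of the 10 genes in each sample, 1 panel per gene, with DKO in red and wild type in blue; points are samples, bars are group means, and each panel spans the same range around its own mean. Both DKO points lie above both wild-type points for Ccl22, Ccl17, Fscn1, Ido1 and Zbtb46, below them for Cd80, and among them for Cd86, Cd83, Socs2 and Relb.

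The pair of chemokines came first. Ccl22 and Ccl17 both bind Ccr4, a receptor of Th2, regulatory and skin-homing T cells, and their genes are neighbours on chromosome 8 of GRCm38, on the plus strand, at 94745590 to 94751699 (Ccl22, ENSMUSG00000031779) and 94810453 to 94812036 (Ccl17, ENSMUSG00000031780). They lie 58.8 kb apart with 1 protein-coding gene between them, Cx3cl1. The sequences before their starts are shown because the ligands share a receptor and a locus and were both higher in every DKO sample. They come from RefSeq (GRCm38.p6, plus strand), and capitals mark the motif matches described after them.
Ccl22 upstream, chr8:94745434-94745589: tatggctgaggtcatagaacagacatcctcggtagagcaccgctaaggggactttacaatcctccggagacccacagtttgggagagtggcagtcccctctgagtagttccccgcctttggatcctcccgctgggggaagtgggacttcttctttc
Ccl17 upstream, chr8:94810203-94810452: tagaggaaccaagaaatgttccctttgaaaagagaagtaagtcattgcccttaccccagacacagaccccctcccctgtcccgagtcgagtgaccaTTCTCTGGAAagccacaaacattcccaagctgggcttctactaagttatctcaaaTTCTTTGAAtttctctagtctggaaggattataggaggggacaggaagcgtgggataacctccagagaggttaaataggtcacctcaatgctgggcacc

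Motifs were sought on both strands of the 250 bases before each RefSeq start, which were at hand for 5 of the 10 genes (Ccl22, Ccl17, Fscn1, Zbtb46 and Cd80). The STAT5-type motif TTCNNNGAA occurred in the Ccl17 window as TTCTTTGAA, beginning 99 bases before the start, and in 7.02% of all 32851 such windows. The STAT6-type motif TTCNNNNGAA occurred there as TTCTCTGGAA, beginning 154 bases before the start, and in 5.85% of all windows. Neither match overlapped the other. The Ccl22 window held neither of them, nor TATAAA (12.4% of windows) nor the NF-kappaB consensus decamer (9.55% of windows). Fscn1 held TATAAA, beginning 31 bases before the start, and the Zbtb46 and Cd80 windows held none of the 4. The Zbtb46 window (chr2:181424389-181424638) and the Cd80 window (chr16:38458683-38458932) lie wholly inside the gene coordinates given below. They are therefore not upstream of those genes as annotated. The part of the Ccl22 window that lies inside the gene coordinates given above was searched but is not shown. These are matches of letters only.

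Ccl22 stood at 10.11 and 10.34 in the DKO samples, against 9.69 and 9.85 in the wild-type samples. The groups were 0.253 apart at their nearest samples. It rose by 0.46 on the log2 scale (SE 0.0989, adjusted p = 0.00897 in limma), a fold of 1.37. Without wild-type replicate 1 the difference was 0.37 and did not pass (adjusted p = 0.0668). Ccl17 stood at 6.74 and 6.70 in DKO and at 6.40 and 6.44 in wild type, so that its groups were apart as well and each pair lay close together. Its difference of 0.30 (95% interval 0.06 to 0.54) did not pass (adjusted p = 0.0969). Cx3cl1, the membrane-bound chemokine between them, looked up for its position, was at 7.93 and 7.71 in DKO and 7.33 and 7.26 in wild type (log2 fold change 0.53, adjusted p = 0.00756). All 8 endothelial markers rose in the same samples, and their part in the change of Cx3cl1 was not tested.

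Among receptors of Ccl22 and Ccl17, Ccr4 fell and Ackr2 rose, each with a limit. Ccr4 was at 8.81 and 8.74 in DKO and at 9.08 and 9.05 in wild type, so that it fell by 0.29 on the log2 scale (SE 0.085, adjusted p = 0.0415 in limma). That call was lost without DKO replicate 2 or with either wild-type sample left out (adjusted p = 0.0757, 0.207 and 0.186). Ackr2, a scavenging receptor of inflammatory chemokines found on lymphatic endothelium, stood at 4.93 and 5.32 in DKO and at 4.42 and 4.45 in wild type (0.69, SE 0.138, adjusted p = 0.00555). Its level lay near the minimum mean rlog of 4, and it was not tested where a mean rlog of at least 6 was required. Ackr2 rose beside all 8 endothelial markers, whose part in its change was not tested. Dpp4, a peptidase that trims Ccl22, differed by 0.23 and did not pass (adjusted p = 0.149, and 0.0487 without DKO replicate 2). Of 12 tested genes of GM-CSF, IL-4, IL-13, TSLP and their receptors, cytokines that induce these chemokines in culture, 0 rose and 1 fell, the receptor chain Il13ra1 (-0.28, adjusted p = 0.0419). Il13ra1 lost its call without DKO replicate 2 or with either wild-type sample left out (adjusted p = 0.109, 0.161 and 0.211). Csf2, which encodes GM-CSF, was at 9.06 and 8.55 in DKO and at 8.36 and 8.45 in wild type (0.40, adjusted p = 0.0901), and passed without DKO replicate 2 (0.65, adjusted p = 4.44e-05). In the same setting Crlf2, the receptor chain of TSLP, fell (-0.39, adjusted p = 0.00285, against -0.16 and 0.466 with all samples).

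**Figure D2:**
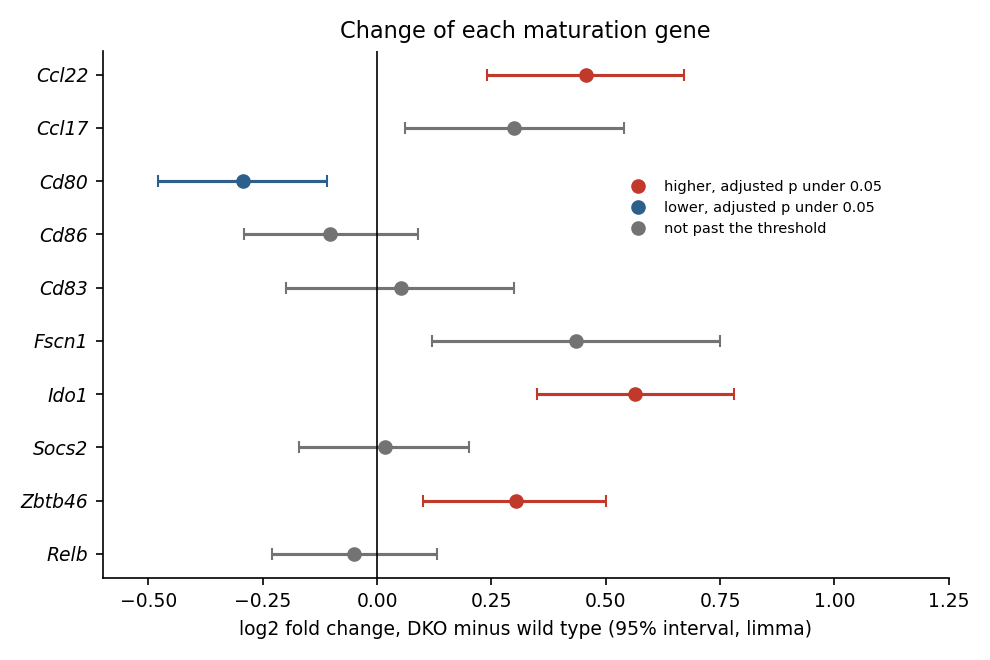
Log2 fold change of each gene, DKO minus wild type, with its 95% interval from limma; red marks genes that rose and blue genes that fell at an adjusted p under 0.05, and grey those that did not pass. Ido1, Ccl22 and Zbtb46 lie to the right of 0 and Cd80 to the left, while the grey intervals of Ccl17 and Fscn1 also lie above 0 before adjustment.

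Among the costimulatory molecules 1 fell and none rose. Cd80 and Cd86 are the B7 ligands of Cd28 and Ctla4 on T cells, and both lie on chromosome 16, at 38455561 to 38496335 (Cd80) and 36603869 to 36666081 (Cd86). Cd80 was at 9.73 and 9.86 in the DKO samples and at 10.14 and 10.04 in the wild-type samples, with no overlap. It fell by 0.29 on the log2 scale (SE 0.0846, adjusted p = 0.0391), a fold of 0.82. The call was lost without DKO replicate 1 (-0.23, adjusted p = 0.113), without wild-type replicate 1 (-0.24, adjusted p = 0.261) and without wild-type replicate 2 (-0.34, adjusted p = 0.0867). It was also lost with no filter, with no variance trend and with quantile normalization (adjusted p = 0.0647, 0.0819 and 0.0725).

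Cd86 stood at 11.61 and 11.54 in DKO and at 11.76 and 11.60 in wild type, and the groups overlapped. Its difference was -0.10, with a 95% interval of -0.29 to 0.09 (adjusted p = 0.502). Cd83, a surface protein that stabilises MHC class II and Cd86 on mature dendritic cells (chromosome 13, 43784775 to 43803132), was at 11.80 and 11.42 in DKO and at 11.51 and 11.61 in wild type. The DKO samples lay on either side of the wild-type samples, the mean difference was 0.05 (95% interval -0.20 to 0.30), and its sign turned without DKO replicate 1 (-0.14). Over all genes tested, 9.92% rose and 4.85% fell. Of the 9 tested genes of the B7 family and its receptors other than Cd80 and Cd86, 0 passed in limma, and 1 had an unadjusted p under 0.05. Among them were Cd274, the ligand PD-L1 (12.99 and 13.06 in DKO, 13.31 and 13.22 in wild type, adjusted p = 0.126), Cd28 (-0.09) and Ctla4 (-0.05).

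Cd80 and Cd86 are also macrophage and monocyte genes, and markers of those cells were lower in the same samples. Of 9 macrophage markers 6 fell and 0 rose, with a median of -0.37 (3 fell without wild-type replicate 1). Their mean rlog was 9.49 and 9.66 in DKO and 9.95 and 9.88 in wild type. Those with the smallest p were the complement genes C1qb (-0.50), C1qc (-0.49) and C1qa (-0.48), of which C1qa lost its call without wild-type replicate 2 (adjusted p = 0.0542). Of 7 monocyte markers 2 fell, Chil3 (-1.5) and Ly6c2 (-0.85), and 1 rose, the peptidase gene Ace (1.28), which endothelium also expresses, and 5 fell without DKO replicate 1. None of these markers was at 0 in any sample, and the part of macrophages and monocytes in the level of Cd80 was not tested. Among markers of B cells, another source of Cd83 and Cd86, Cd79b, a chain of the B cell receptor, was at 5.77 and 5.76 in DKO and at 5.73 and 5.71 in wild type (adjusted p = 0.85). The kinase gene Blk lay between 3.62 and 4.01, under the minimum for testing, the transcription factor gene Pax5 was listed at 0 in every sample, and 4 further markers lay between -1.5 and -0.29.

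Fscn1 encodes fascin, the actin-bundling protein of mature dendritic cell extensions (chromosome 5, 142960343 to 142973185). It was at 8.22 and 8.73 in the DKO samples and at 7.995 and 8.09 in the wild-type samples. Both DKO samples were higher, but they differed from each other by more than DKO replicate 1 differed from either wild-type sample. The difference of 0.43 (SE 0.143) did not pass (adjusted p = 0.0694). DKO replicate 2 carried most of it: the difference was 0.69 without DKO replicate 1 (adjusted p = 5.94e-05) and 0.18 without DKO replicate 2 (adjusted p = 0.315). With sample weights it passed (adjusted p = 0.0492). Markers of endothelium (8 of 8) and of fibroblasts (8 of 8) rose in the same samples, and their part in the level of Fscn1 was not tested. Among the 13 tested genes of actin bundling and motility, Fscn1 included, Pls3, the plastin of non-blood cells, rose by 0.85 (adjusted p = 0.000229), and Vasp, which promotes filament growth, fell by 0.37 on the log2 scale (adjusted p = 0.0438). Vasp lost its call without DKO replicate 1 (-0.23, adjusted p = 0.159) or with either wild-type sample left out (adjusted p = 0.217 and 0.139). Lcp1, the plastin of blood cells, was at -0.13 (adjusted p = 0.61). Without DKO replicate 1 there were 3 rises and 0 falls in this list, and without DKO replicate 2 there were 4 falls, and with median centring or robust variance 2 falls.

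Ido1 had the largest fold change and the smallest p of the 10 genes. It encodes indoleamine 2,3-dioxygenase, which opens the kynurenine pathway by oxidising tryptophan and is induced by interferon gamma in dendritic cells, epithelium and endothelium (chromosome 8, minus strand, 24584136 to 24597009). The DKO samples stood at 8.90 and 8.92, against 8.24 and 8.45 in the wild-type samples. The DKO values were nearly the same, and the lower of them was 0.45 above the higher wild-type value. Ido1 rose by 0.56 on the log2 scale (SE 0.0976, adjusted p = 0.0022), a fold of 1.48. It passed in all 11 alternatives, with log2 fold changes of 0.46 to 0.67 and adjusted p of 0.000432 to 0.0213.

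The other tested genes of the kynurenine pathway did not pass, where 9.92% of all genes tested rose and 4.85% fell. At these shares so short a list can hold no call. Its neighbour Ido2, 7.8 kb away, was at 2.82 and 3.08 in DKO and at 3.10 and 3.03 in wild type, under the minimum for testing. Of 11 tested genes of tryptophan and kynurenine metabolism, uptake and sensing, 0 passed in limma, and 1 had an unadjusted p under 0.05, the tryptophanyl-tRNA synthetase Wars (10.73 and 10.86 in DKO, 10.43 and 10.61 in wild type, adjusted p = 0.0674). Among enzymes that act on kynurenine, Kmo and Kynu differed by 0.06 and -0.10, and the aminotransferase genes Kyat1 and Kyat3 by 0.18 and 0.20 (adjusted p = 0.464 and 0.296), with the groups apart for Kyat3. The receptor Ahr differed by -0.17 (adjusted p = 0.278). Without DKO replicate 1 Wars rose (0.34, adjusted p = 0.0132) and Ahr fell (-0.27, adjusted p = 0.0438), and with quantile normalization Wars rose (adjusted p = 0.0269) and the dioxygenase gene Haao fell (adjusted p = 0.0463). Of 10 genes of interferon gamma signalling 0 rose and 1 fell, the receptor chain Ifngr2 (-0.29, adjusted p = 0.0361). Ifngr2 lost its call without DKO replicate 2 or with either wild-type sample left out (adjusted p = 0.0637, 0.135 and 0.241). Ifng itself was at 12.76 and 12.72 in DKO and at 12.42 and 12.57 in wild type (0.24, adjusted p = 0.11), and the groups were apart. Irf1, a target of that pathway, differed by 0.03. With quantile normalization Ifng rose (0.34, adjusted p = 0.0279) and no gene of the list fell.

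Socs2, an inhibitor of JAK and STAT5 signalling that restrains dendritic cell activation (chromosome 10, 95385362 to 95417180), stood at 9.48 and 9.36 in DKO and at 9.37 and 9.44 in wild type. The groups overlapped, and the difference was 0.02 with a 95% interval of -0.17 to 0.20 (adjusted p = 0.93). Of 10 genes of the SOCS family and STAT5 signalling, Stat5a (0.28, adjusted p = 0.0319) and Socs5 (0.34, adjusted p = 0.0425) rose and 0 fell. Stat5a lost its call with either wild-type sample left out (adjusted p = 0.227 and 0.126), and Socs5 lost it whichever sample was left out (adjusted p = 0.0636 to 0.193). Cish and Socs1 were at -0.22 and -0.20 and did not pass (adjusted p = 0.154 and 0.363), though Socs1 fell without DKO replicate 2 (-0.42, adjusted p = 0.00176).

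**Figure D3:**
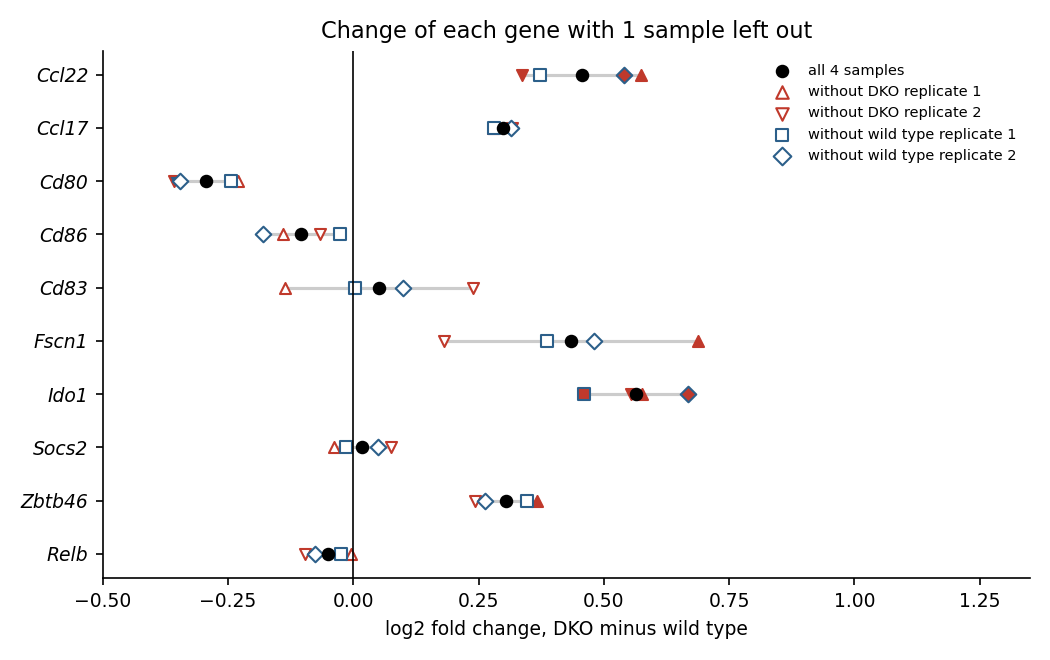
Log2 fold change of each gene, DKO minus wild type, in all 4 samples (black) and with 1 sample left out (open or filled symbols, filled where the adjusted p was under 0.05). Ido1 is filled throughout, Ccl22 is open once, without wild-type replicate 1, and Fscn1 spreads from 0.18 to 0.69 with the DKO sample left out.

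The last of the 10 genes encode transcription factors. Zbtb46 marks the conventional dendritic cell lineage and is also expressed in endothelium (chromosome 2, minus strand, 181387762 to 181459426). It was at 8.88 and 9.01 in the DKO samples and at 8.68 and 8.60 in the wild-type samples, with the groups apart. It rose by 0.30 on the log2 scale (SE 0.0907, adjusted p = 0.0453), a fold of 1.24. The call was lost without DKO replicate 2 (0.24, adjusted p = 0.115), without wild-type replicate 1 (0.35, adjusted p = 0.103) and without wild-type replicate 2 (0.26, adjusted p = 0.295). It was also lost with no filter, no variance trend and quantile normalization (adjusted p = 0.0636, 0.0683 and 0.0512). All 8 endothelial markers rose in the same samples, by 0.48 to 1.55, with a mean rlog of 8.67 and 8.74 in DKO and of 7.59 and 7.39 in wild type. No endothelial marker was at 0 in any sample, and their part in the levels of Zbtb46 and Ido1 was not tested.

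Relb, the NF-kappaB subunit of the alternative arm that dendritic cell maturation depends on (chromosome 7, 19606217 to 19629438), stood at 11.83 and 11.93 in DKO and at 11.96 and 11.90 in wild type. The groups overlapped and the difference was -0.05, with a 95% interval of -0.23 to 0.13 (adjusted p = 0.768). Its partner Nfkb2 was at 12.79 and 12.92 in DKO and at 12.92 and 12.80 in wild type, a difference of -0.01. Of 17 tested genes of that arm 0 fell and 1 rose, Tnfsf13b, which encodes the B cell growth factor BAFF (0.68, adjusted p = 0.00628, and 0.44 without wild-type replicate 1). The kinase Map3k14 (-0.03), the receptor Ltbr (0.07) and Cd40 (0.13) did not pass. Without DKO replicate 2, 2 of these genes rose and 1 fell, and without wild-type replicate 2, 2 rose.

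In the wider programme of mature migratory dendritic cells, genes passed in both directions. Of 28 further genes of such cells 25 were tested, with a median log2 fold change of -0.015. Of these, 2 rose and 2 fell, against 9.92% and 4.85% of all genes tested. Cd200, a surface glycoprotein of mature dendritic cells and of endothelium, rose to 9.11 and 9.16 in DKO, against 8.30 and 8.26 in wild type (0.85, SE 0.0865, adjusted p = 7.81e-05). Il12b, the p40 chain of IL-12 and IL-23, stood at 10.63 and 10.56 in DKO and at 9.68 and 10.15 in wild type (0.68, adjusted p = 0.00354, and 0.45 without wild-type replicate 1). The falls were Ankrd33b (-0.41, adjusted p = 0.0206) and the adaptor Samsn1 (-0.37, adjusted p = 0.0162). Ankrd33b lost its call without wild-type replicate 1 (-0.29, adjusted p = 0.223), and Samsn1 lost it without wild-type replicate 2 (adjusted p = 0.146) or with quantile normalization (adjusted p = 0.0686), under which 4 genes of the list rose and 1 fell. Serpinb9 (0.26) and Marcksl1 (-0.39) did not pass (adjusted p = 0.051 and 0.0737 in limma), and were at 0.25 and -0.61 without DKO replicate 2. Ccr7, the receptor that guides mature dendritic cells to lymph vessels and that T cells also carry, was at 12.13 and 12.36 in DKO and at 12.24 and 12.33 in wild type, and the groups overlapped (adjusted p = 0.865).

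Calls among markers of conventional dendritic cells themselves stand beside 9.92% of all genes tested that rose and 4.85% that fell. Of 8 genes of both types 0 rose and 1 fell, Cd24a, which epithelium and neutrophils also express (-0.43, adjusted p = 0.00997, and adjusted p = 0.052 without wild-type replicate 2). In that list 2 genes fell without DKO replicate 1, and 1 rose without DKO replicate 2. With median centring, no variance trend, robust variance or quantile normalization the transcription factor gene Spib fell as well (-0.35 and adjusted p = 0.051 as first fitted, 0.048, 0.0275, 0.046 and 0.0141 in these settings). Flt3, the growth factor receptor of the lineage, was at 7.38 and 7.33 in DKO and at 7.45 and 7.20 in wild type. Of 9 type 1 markers 0 passed in limma, and 3 had an unadjusted p under 0.05. Without DKO replicate 1, 2 of them rose, without wild-type replicate 2, 1 rose, and without DKO replicate 2, 1 fell, the amidase gene Naaa. Naaa (-0.27, adjusted p = 0.0541) also fell with median centring, robust variance and sample weights (adjusted p = 0.0417, 0.0435 and 0.0482). Of 7 tested type 2 markers Mgl2, a lectin, rose (0.58, adjusted p = 0.0234) and Sirpa, which macrophages and neutrophils carry too, fell (-0.46, adjusted p = 0.00468). Mgl2 lost its call without DKO replicate 1 (0.35, adjusted p = 0.11) or wild-type replicate 1 (adjusted p = 0.0808), and with quantile normalization (adjusted p = 0.0623). Without DKO replicate 2, 3 type 2 markers rose and 2 fell.

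The 10 genes were also set against the mean of the 8 markers of both dendritic cell types, which was 8.26 and 8.13 in the DKO samples and 8.26 and 8.23 in the wild-type samples, a difference of -0.05. Subtracting it moves every gene by the same amount and cannot change their order. Relative to it Ido1 was 0.62 higher in DKO and Ccl22 0.51 higher on the log2 scale, and Cd80 was at -0.24. No test was made of these relative differences, and Itgax, Cd24a and others among the 8 are not particular to dendritic cells.

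**Figure D4:**
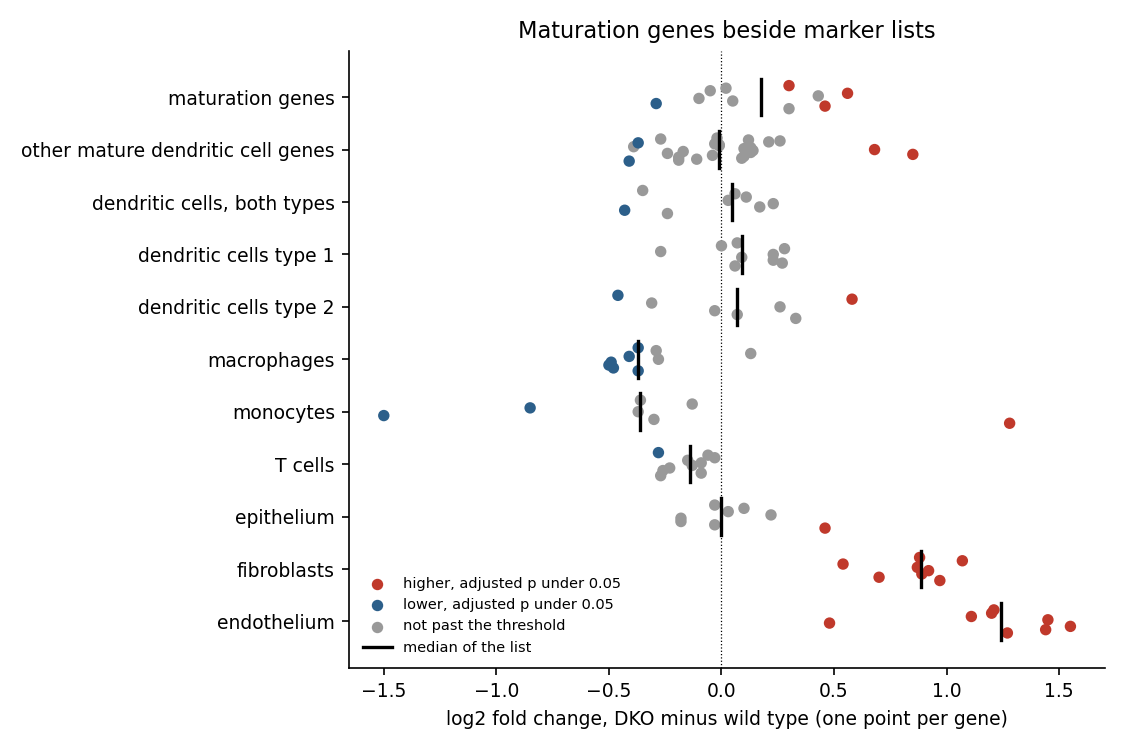
Log2 fold change of each tested gene, DKO minus wild type, in the maturation genes, the other genes of mature dendritic cells and 9 lists of cell type markers; red points rose and blue points fell at an adjusted p under 0.05, and black bars are medians. The dendritic cell lists scatter around 0, the macrophage median lies at -0.37, and every fibroblast and endothelial point lies at 0.48 or above.

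Lists of some other cell types had medians further from 0. All 8 fibroblast markers rose (median 0.89), with a mean rlog of 12.04 and 11.82 in DKO and 11.11 and 11.04 in wild type. Of these Lum lost its call without DKO replicate 1 (0.25, adjusted p = 0.0646, against 0.54 with all samples) and with no filter, no variance trend or robust variance (adjusted p = 0.0565, 0.0616 and 0.197). All 9 neutrophil markers fell (median -1.4), with a mean rlog of 10.28 and 10.18 in DKO and 11.59 and 11.84 in wild type. With robust variance 7 of the 9 fell, the exceptions being Camp (adjusted p = 0.231) and Retnlg (adjusted p = 0.126). Of 10 T cell markers 1 fell, Trat1 (-0.28, adjusted p = 0.04), which lost its call with either wild-type sample left out (adjusted p = 0.0727 and 0.375), while 4 fell without DKO replicate 2. Of 6 regulatory T cell markers Il2ra rose (0.28, adjusted p = 0.0352), but not with either wild-type sample left out (adjusted p = 0.0994 and 0.339), and 2 rose without DKO replicate 2 or without wild-type replicate 2. Of 7 tested plasmacytoid dendritic cell markers 3 fell and 1 rose. Ly6d (-1.11, adjusted p = 0.000982), with the smallest p, Siglech (-0.78) and Ccr9 (-0.43) fell, and Tcf4 (0.38) rose. Siglech did not pass with robust variance (adjusted p = 0.0523) and was at -0.44 without DKO replicate 2. Ccr9 lost its call without DKO replicate 2 (-0.34) and without wild-type replicate 1 (-0.39). Tcf4 lost its call without wild-type replicate 2 (0.34). Klk1, which did not pass (0.03), was at -0.51 without wild-type replicate 1 and at 0.56 without wild-type replicate 2. Of 8 epithelial markers only Car1 passed (0.46, adjusted p = 0.00463, and adjusted p = 0.0712 without wild-type replicate 2), and 1 marker fell without DKO replicate 1. The calls of Ccr4, Il13ra1, Vasp, Ifngr2 and Trat1 were also lost with no filter, no variance trend and quantile normalization (adjusted p = 0.0503 to 0.184), and those of Stat5a and Il2ra with no filter and no variance trend (adjusted p = 0.0543 to 0.0761).

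The levels of the 10 genes were also ordered among themselves, after subtracting the log2 of the summed exon length in kilobases. In the DKO samples the order was Cd83 (10.25), Relb (9.92), Cd86 (9.70), Ccl22 (9.01), Ido1 (8.04), Cd80 (7.90), Ccl17 (7.68), Fscn1 (6.89), Socs2 (6.17) and Zbtb46 (5.85). Wild type had the same order with 1 exchange: Cd80 stood at 8.20 and Ido1 at 7.47, so that Cd80 came before Ido1. Every Ido1 sample was above every Cd80 sample in DKO (8.03 and 8.05 against 7.84 and 7.97), and the reverse held in wild type (7.37 and 7.58 against 8.25 and 8.15). In wild type, Ido1 and Ccl17 overlapped (7.36 and 7.40 for Ccl17). No other neighbours in either order overlapped. On this per-length scale Cd83, Relb and Cd86 stood at the 93.3rd percentile of tested genes or higher in both groups, and Zbtb46 stood at the 43.9th percentile in DKO and the 39.4th in wild type. The summed length takes in every annotated exon and may exceed that of the transcripts present, so these levels are approximate.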

How the data were processed

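Stranded libraries of messenger RNA from lamina propria mononuclear cells were made from 4 mouse samples, per the labels' protocols, and grouped by the transferred CD4 cells, DKO (2) or wild type (2). Replicate numbers follow the order of the entries and pair no samples. The authors deposited log2 values, named rlog (the regularized log2 of DESeq2) in the table's name. The genome build was GRCm38, and the tools were STAR 2.5.4a, BWA 0.7.14-r1136, featureCounts of Subread 1.5.2, cutadapt 1.9.1, bcl2fastq 2.17.1.14 and DESeq2, per the submitters' processing notes. Their roles and settings, the use of strand in counting and the annotation release were not given in the sources used here. A further 2 value columns fit none of the labelled samples and were left out, although the authors' shrinkage may have drawn on them.

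Of 48526 identifiers, 48144 matched a symbol and position in GENCODE M21 (GRCm38). The 13528 genes whose rlog averaged at least 4 were fitted with limma 3.58.1 in R 4.3.3, group as the only term, with a mean-variance trend (8.9 prior and 2 residual degrees of freedom), two-sided, Benjamini-Hochberg adjustment over all genes tested and a threshold of 0.05. An exact permutation test of 2 against 2 samples cannot go below 0.333 and was not used. Fold changes are DKO minus wild type, with SE and 95% intervals from the moderated fit. Python 3.11.15, pandas 2.3.3 and matplotlib 3.10.9 made tables and figures, and the fit was tested on simulated data. The 10 genes and the 22 related lists were chosen with earlier results of these data known, so lists are described by counts and medians only. Each count of calls in a list is to be read beside the 9.92% of all genes tested that rose and the 4.85% that fell. The text names all 10 genes, the members of related lists with the smallest p among those that passed or counted by name, and, chosen after their values were seen, some list members that did not pass. Where 1 sample is left out, the remaining one of its group takes its spread from the other group. Upstream sequences are RefSeq's. Zbtb46 overlaps the predicted gene Gm22708 on its own strand. A marker of the B cell list is not reported here.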

Additional observations from a re-analysis of the deposited data

How the results depend on the processing

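Each result was recomputed with no filter, a mean rlog of at least 6, no variance trend, a robust variance estimate, median centring, quantile normalization, sample weights and with 1 sample left out at a time. Ido1 passed in 11 of 11 alternatives, Ccl22 in 10, Zbtb46 and Cd80 in 5 each and Fscn1 in 2. Ccl17, Cd86, Cd83, Socs2 and Relb passed in 0 of them. Zbtb46 did not pass with no filter, no variance trend (0.30 in both) or quantile normalization (0.30), nor did Cd80 (-0.29, -0.29 and -0.25), which left 0 members lower in these 3 settings. Fscn1 passed with sample weights (0.43). With 1 sample left out, log2 fold changes ran from 0.34 to 0.58 for Ccl22, from 0.24 to 0.37 for Zbtb46, from -0.36 to -0.23 for Cd80 and from 0.18 to 0.69 for Fscn1, members called higher from 1 to 4 and called lower from 0 to 1. Over all genes, 878 rose with a mean rlog of at least 6, where fewer genes were tested, and between 324 and 1222 fell with 1 sample left out (656 with all samples). The cause of the other changes was not tested. With 2 samples a group and shrunken values of unknown depth, small differences may have gone undetected. A gene that did not pass is not shown to be unchanged.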
